A study of Mus musculus with 6 samples.

Results

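The genes described here are 8 that mark mesothelium or, in the case of MUC16, pair with a mesothelial protein: MUC16, MSLN, WT1, UPK3B, UPK1B, LRRN4, CALB2 and GPM6A. They were taken by symbol from a count table of 46937 symbols, and all 8 were found. The symbols are mostly in capitals there although the samples are from mouse. Some are human gene names, such as HLA-F, and some share the same values, such as CXorf40A and CXorf40B. A symbol therefore need not stand for a mouse gene of that name. Total RNA had been sequenced from 6 biopsies of mouse lung squamous cell carcinoma. The 3 PSC libraries are the controls, from tumours with PIK3CA H1047R (a constitutively active PI3K catalytic subunit), overexpressed SOX2 and loss of CDKN2A and CDKN2B, and they are labelled as wild type for NSD3. The 3 PSCN libraries have these alterations too, plus expression of NSD3 T1242A, which is a mutant form of a histone methyltransferase. The comparison of the 2 groups asks how tumour transcripts differ when mutant NSD3 is present. The promoter or cells that drive the alleles, the age of the mice and whether each biopsy came from its own mouse are not given in the labels used here, so the p-values speak only to the spread among these 6 samples, which may be technical.

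Mesothelium is the flat epithelium that covers the lung and lines the chest wall, and its cells make a lubricated, non-adhesive surface. MUC16, known in the clinic as the antigen CA125, is a very large membrane-tethered mucin of mucosal surfaces and mesothelium, and mesothelin (MSLN) is a membrane-anchored glycoprotein that binds it. WT1 is a zinc finger transcription factor of mesothelium and kidney. UPK3B and UPK1B are uroplakins, membrane plaque proteins first known from the bladder lining, LRRN4 is a membrane protein with leucine-rich repeats, CALB2 (calretinin) is a calcium-binding protein of neurons and mesothelium, and GPM6A is a membrane glycoprotein of neurons that mesothelium also expresses.

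Promoter sequences of 4 of the 8 genes (MUC16, UPK3B, LRRN4 and GPM6A) were found in a RefSeq table for GRCm38.p6, which gives 250 bases before and 50 bases after the annotated start. MUC16 is shown because it had the largest log2 fold change in size among the 6 members tested, and UPK3B and LRRN4 because both were high in the same single library. Each is printed 5′ to 3′, with the letters GGAATG (a motif of TEAD factors) in capitals where they occur on either strand, the reverse strand reading CATTCC.
MUC16 (chr9:18674554-18674853, minus strand): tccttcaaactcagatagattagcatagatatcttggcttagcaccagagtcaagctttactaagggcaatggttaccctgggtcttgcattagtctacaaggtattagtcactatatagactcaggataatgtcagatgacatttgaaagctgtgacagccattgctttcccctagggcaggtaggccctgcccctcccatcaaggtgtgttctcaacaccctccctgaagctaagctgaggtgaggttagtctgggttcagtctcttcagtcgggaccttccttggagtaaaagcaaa
UPK3B (chr5:136038246-136038545, plus strand): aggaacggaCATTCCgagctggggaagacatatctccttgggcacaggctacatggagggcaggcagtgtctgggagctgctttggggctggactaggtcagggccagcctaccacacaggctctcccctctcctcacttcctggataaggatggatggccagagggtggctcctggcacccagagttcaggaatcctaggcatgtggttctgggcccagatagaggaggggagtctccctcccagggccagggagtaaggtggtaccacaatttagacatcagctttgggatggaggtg
LRRN4 (chr2:132880813-132881112, minus strand): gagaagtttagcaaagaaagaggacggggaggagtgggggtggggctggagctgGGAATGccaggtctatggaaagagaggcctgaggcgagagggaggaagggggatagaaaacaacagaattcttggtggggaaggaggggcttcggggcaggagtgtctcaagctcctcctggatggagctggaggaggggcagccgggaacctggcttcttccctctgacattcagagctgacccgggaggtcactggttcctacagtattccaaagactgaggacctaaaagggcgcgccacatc

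GGAATG occurred once in the UPK3B window, once in that of LRRN4 and not in that of MUC16, and 14.7% of the 32851 promoter windows in the table hold it. Of GTGGGNG, a core shared by WT1 and EGR factors that 31.6% of windows hold, LRRN4 had 1 match and the MUC16 and UPK3B windows had none. TGANTCA (AP-1, in 7.81% of windows), TATAAA (13.6%), CCAAT (37.4%), GGGCGG (35.7%) and TGTTTAC (FOX, 3.65%) were absent from the windows of MUC16, UPK3B and LRRN4. GTGGGNG and GGGCGG can share letters, and all motifs were searched on both strands. GPM6A has 2 annotated starts in the table, with 1 GGAATG and 1 GGGCGG at the first and 1 TATAAA at the second. A match is a description of the letters only, and no data on binding were part of this series.

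Total counts per library ran from 69563622 to 72807077. Levels are given as CPM, counts scaled to a common library total after TMM adjustment, and values of a group are always listed in the order of its libraries 1, 2 and 3. NSD3 ran from 79.7 to 101.7 CPM in PSC and from 820.7 to 1932 CPM in PSCN, so its levels follow the labels. The groups thus differ in the amount of NSD3 RNA as well as in the mutation. With no group of added wild-type NSD3, these cannot be told apart. PSC library 3 was closer to PSCN than to its own group. Its log2 CPM over genes correlated on average at 0.941 with PSCN libraries and at 0.908 with those of its own group (genes are not replicates of each other). The other libraries were not compared in this way. The female transcript XIST was high in PSC libraries 2 and 3, with 1088 and 1034 CPM, and ran from 0.89 to 2.40 CPM elsewhere, so PSC library 1 was the only male library of its group while all 3 PSCN libraries were male. The squamous keratin KRT5 was at 52.1, 575 and 2035 CPM in PSC against 2678 to 7319 CPM in PSCN, so the labelled tumour type had little of this defining marker in PSC library 1. That library also held the heart muscle myosin MYH6 at 1294 CPM, against at most 9.26 CPM elsewhere. In bulk tissue, fewer cells of a type and less RNA per cell cannot be told apart.

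MUC16 was readily counted in PSC and nearly missing from PSCN. PSC had 1875, 5915 and 1152 counts and PSCN had 7, 3 and 35. On the CPM scale these are 25.3, 78.1 and 15.7 in PSC and 0.102, 0.0464 and 0.488 in PSCN. The groups were far apart, since the lowest PSC library held 32.1 times the highest PSCN library. PSC averaged 39.7 ± 33.6 CPM and PSCN 0.212 ± 0.241 CPM (SD, n = 3 each), a ratio of 187 and a log2 fold change of -7.52 (SE 1.19). Only 0.174% of the 21201 genes tested had a lower log2 fold change. MUC16 passed the filter on low counts through its PSC libraries. With edgeR's quasi-likelihood test the adjusted p of MUC16 was 0.140, above the threshold of 0.05. In that edgeR fit 1 gene, or 0.00472%, was called higher and 0 genes, or 0%, were called lower. Without adjustment 9.48% of genes were higher and 12.2% lower at 0.05, MUC16 among the latter. Without PSC library 3, where 5.4% of 22126 genes were called lower, MUC16 passed (log2 fold change -7.89, adjusted p = 0.0403 with edgeR). In the authors' deposited table from DESeq2, where 8.1% of genes with an adjusted p were called lower, it had a log2 fold change of -7.55 and an adjusted p of 3.44e-12. Over 15 alternative fits the log2 fold change lay between -9.05, without PSCN library 3, and -6.57, without PSC library 2, and the adjusted p between 3.4e-12 and 0.421.

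Mesothelin followed MUC16 in direction. In PSC it stood at 146.3, 151.1 and 46.5 CPM, and in PSCN at 28.4, 4.82 and 4.42 CPM. All PSC libraries were above all PSCN libraries, but PSC library 3 and PSCN library 1 were only 1.64 times apart. PSC averaged 114.6 ± 59 CPM and PSCN 12.6 ± 13.7 CPM (SD, n = 3 each), a ratio of 9.13 and a log2 fold change of -3.19 (SE 0.93, adjusted p = 0.191 with edgeR). The authors' deposited table gives -3.23 with an adjusted p of 0.00411. MSLN did not pass in edgeR without PSC library 3 (log2 fold change -3.55, adjusted p = 0.0720). With 1 library left out its log2 fold change lay between -4.62, without PSCN library 1, and -2.82, and over all 15 alternatives its adjusted p lay between 0.00407 and 0.438. Per length, MSLN was at 37.4 CPM per kb of merged exons in PSC and at 4.10 CPM per kb in PSCN, whereas MUC16, with exons spanning 26350 bases in all, was at 1.51 and 0.00805 CPM per kb.

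GPM6A was the third of the 6 members tested with PSCN below PSC in each library. In PSC it stood at 4.31, 6.24 and 3.32 CPM, and in PSCN at 1.20, 1.47 and 1.14 CPM. Each group was tight, with the highest library 1.88 times the lowest in PSC and 1.28 times in PSCN, and the groups did not overlap. The log2 fold change was -1.86 (SE 0.35, adjusted p = 0.171 with edgeR), and it passed without PSC library 3 (log2 fold change -2.04, adjusted p = 0.0409 with edgeR). In the authors' deposited table it was -1.87 with an adjusted p of 2.88e-05. MUC16, MSLN and GPM6A are the 3 of the 6 members tested whose PSCN values all lay below PSC, and 13.4% of all genes tested did so.

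**Figure D1:**
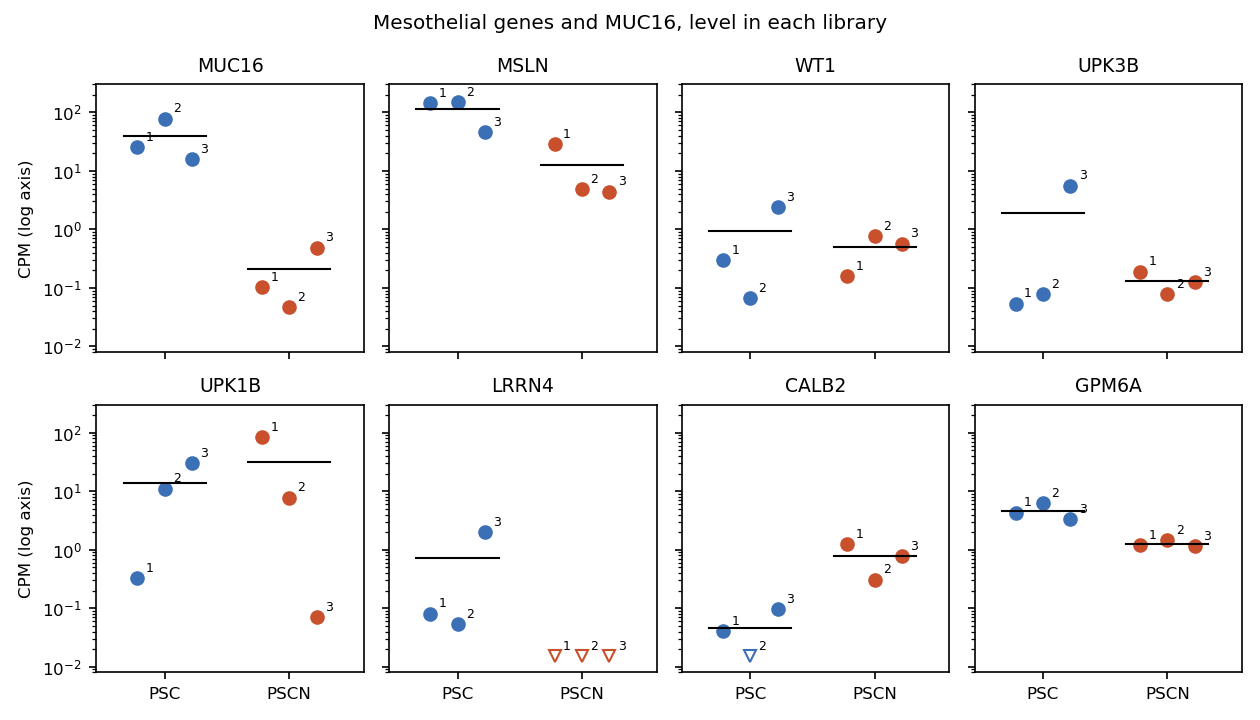
CPM of each gene in each library on a log axis, PSC in blue and PSCN in orange, with the library number beside each point, a bar at the group mean and open triangles at the foot for libraries with 0 counts. MUC16, MSLN and GPM6A are lower in all PSCN libraries, as is LRRN4, which has 0 counts there. CALB2 is higher in all PSCN libraries, and UPK3B and LRRN4 are high in PSC library 3 alone.

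CALB2 went the other way, at low levels. PSC had 3, 0 and 7 counts of it and PSCN had 86, 20 and 56. As CPM, PSC had 0.0405, 0 and 0.0953, where the count of 0 allows up to 0.0396 CPM (3 counts, counting error only), and PSCN had 1.25, 0.309 and 0.781. The groups did not overlap, and the lowest PSCN library held 3.24 times the highest PSC library. The log2 fold change was 4.07 (SE 1.07, adjusted p = 0.187 with edgeR), and it lay between 3.49 and 5.18 with 1 library left out. CALB2 passed the low-count filter through PSCN alone, the group where it is high, so its test and its place among the genes tested depend on that direction. All 3 PSCN libraries lay above PSC in 15.2% of genes tested. The authors' deposited table gives 4.10 and an adjusted p of 0.00349 for CALB2, and calls 3.92% of genes with an adjusted p higher. Even in PSCN, CALB2 was at 0.448 CPM per kb of exon, below MSLN in that group (4.10 CPM per kb).

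UPK3B and LRRN4 belonged to 1 library. Of UPK3B, PSC had 4, 6 and 411 counts and PSCN had 13, 5 and 9. Of LRRN4, PSC had 6, 4 and 148 counts and each PSCN library had 0, which allows up to 0.0464 CPM there. PSC library 3 thus stood at 5.60 CPM of UPK3B, 29.5 times the next highest library, and at 2.02 CPM of LRRN4, 24.9 times the next. Neither gene passed the filter on low counts, which asks for about 10 counts in 3 libraries, so neither entered the test of 21201 genes. With no filter, edgeR gave UPK3B a log2 fold change of -3.87 (SE 1.84, adjusted p = 0.352) and LRRN4 -8.69 (SE 2.77, adjusted p = 0.285), the latter set by the prior count since PSCN is at 0. Against a floor of 3 counts per PSCN library, the observed PSC mean of LRRN4 was 16.3 times the floor, and 1.52 times without PSC library 3. The latter rests on 6 and 4 counts, whose own counting error is not covered, so it is not a lower bound. UPK3B averaged 1.91 ± 3.19 CPM over PSC and 0.131 ± 0.0563 CPM over PSCN (SD, n = 3 each), while without PSC library 3 the PSC mean was 0.0666 CPM, below PSCN. Among 32200 genes with any count, 10 (0.0311%) had at least 2 CPM in PSC library 3 and at least 10 times the next highest library, a cutoff chosen after the values of UPK3B and LRRN4 were seen. The other 8 were CALB1, the close relative of CALB2, at 92.2 CPM in that library, the lymph node vessel genes GLYCAM1 and MADCAM1, the cytochrome gene CYP4A22, the predicted gene GM21982 and the antibody segments IGHV12-3, IGKV1-133 and IGKV4-91.

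WT1 was also highest in PSC library 3, but less exclusively. In PSC it was at 0.297, 0.066 and 2.44 CPM, and in PSCN at 0.160, 0.773 and 0.572 CPM. PSC library 3 held 3.16 times the next highest, and the PSCN libraries lay inside the PSC range. The log2 fold change was -0.89 (SE 1.27, adjusted p = 0.691 with edgeR), and it turned to 1.47 (adjusted p = 0.340) without PSC library 3. Of 7 cofactors and reported targets of WT1, all tested, 0 passed in either direction, and their median log2 fold change was 0.21 against -0.01 over all genes. Of these, 5 had positive and 2 negative log2 fold changes, where 49.1% of all genes tested were positive. The growth factor AREG had 0.83 (SE 0.28) and the WT1 corepressor BASP1 0.89 (SE 0.31). The podocyte gene NPHS1 had 0.85 (SE 0.30) and the signalling inhibitor SPRY1 -0.51 (SE 0.38). The other negative one was PODXL at -0.87 (SE 0.72), with overlapping groups.

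UPK1B varied more within each group than between them. In PSC it was at 0.324, 11.1 and 30.5 CPM, and in PSCN at 85.4, 7.82 and 0.0698 CPM. The highest library was 94.1 times the lowest in PSC and 1224 times the lowest in PSCN, so the PSC range lies inside that of PSCN. The log2 fold change was 1.15 (SE 2.09, adjusted p = 0.760 with edgeR), and -1.82 (adjusted p = 0.642) without PSCN library 1. PSCN library 1, where UPK1B was highest, also had the highest summed level of 7 fibroblast genes, 41470 CPM against 1125 to 3975 CPM in the others, led by the collagen genes COL1A1 and COL1A2. The fibroblast sum was also lowest where UPK1B was lowest, in PSCN library 3. However, PSC library 1 had a larger sum than PSC library 2 (2913 against 1468 CPM) but less UPK1B. The mesothelial marker BNC1 shared the lowest library with UPK1B, PSCN library 3 (0.126 CPM), and the next lowest, PSC library 1 (0.634 CPM). BNC1 peaked elsewhere, at 55.1 CPM in PSCN library 2. The part of the fibroblast difference in the UPK1B level was not tested, nor was the likeness to BNC1.

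**Figure D2:**
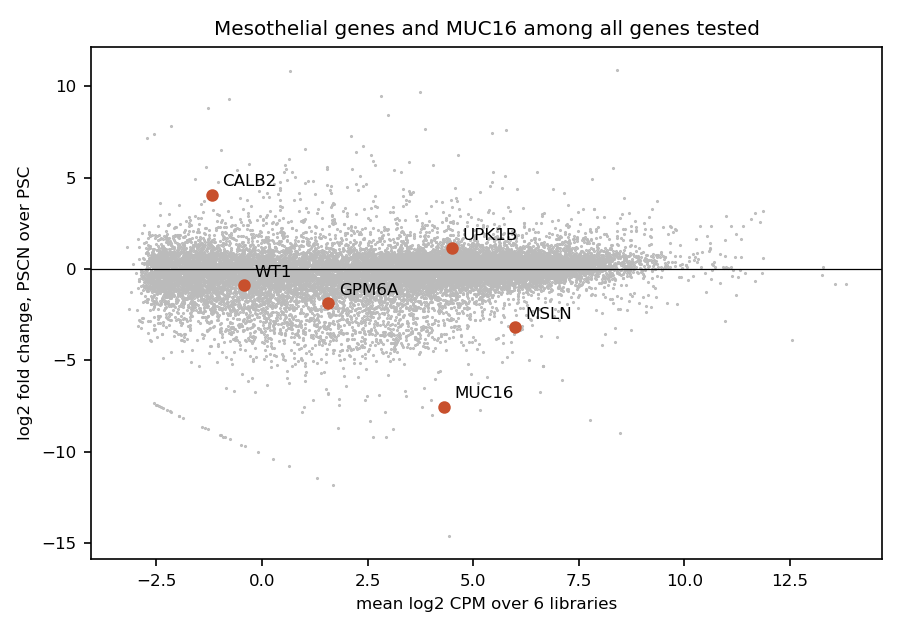
Each grey point is 1 of the 21201 genes tested, with its mean log2 CPM on the horizontal axis and its log2 fold change of PSCN over PSC on the vertical axis, and the 6 mesothelial genes tested in orange. MUC16 lies at -7.52 among the lowest values for its abundance, and CALB2 lies at 4.07.

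With DESeq2, which called 8.2% of genes lower and 4.02% higher, MUC16, MSLN and GPM6A were called lower and CALB2 higher. The same 4 genes were called in the same directions by limma-voom with quality weights, where 5.84% of genes were lower and 8.43% higher. Without PSC library 3, where edgeR called 3.39% of genes higher, CALB2 had a log2 fold change of 5.18 and an adjusted p of 0.0647. WT1 and UPK1B passed in none of the 14 and 15 alternatives that tested them.

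Ordered by level per kb of exon, the genes stood in a different order in the 2 groups. In PSC the order of means was MSLN (37.4 CPM per kb), UPK1B (6.68), MUC16 (1.51), GPM6A (1.44), UPK3B (0.541), LRRN4 (0.193), WT1 (0.151) and CALB2 (0.0260). Only MSLN and UPK1B were neighbours whose library ranges did not overlap there. In PSCN the order was UPK1B (14.9 CPM per kb), MSLN (4.10), CALB2 (0.448), GPM6A (0.395), WT1 (0.0810), UPK3B (0.0371), MUC16 (0.00805) and LRRN4 (0). There the ranges of UPK1B and MSLN, of CALB2 and GPM6A and of WT1 and UPK3B overlapped, and those of the other neighbours did not. Exon lengths are those of GENCODE M21, which may not be the annotation counted by the authors.

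MUC16 and MSLN peaked in other libraries than UPK3B and LRRN4. In PSC libraries 1 and 2, MSLN was at 146.3 and 151.1 CPM while UPK3B and LRRN4 had at most 6 counts each. Across the 6 libraries, Pearson's r of log2 CPM was 0.84 between MUC16 and MSLN, 0.95 between MUC16 and GPM6A and 0.86 between UPK3B and LRRN4, against 0.06 between MSLN and UPK3B and 0.19 between MUC16 and UPK3B. LRRN4, at 0 in PSCN, lay between, with r of 0.61 to MUC16, 0.45 to MSLN and 0.54 to GPM6A. CALB2 ran opposite to MUC16 (r = -0.90) and GPM6A (r = -0.98). These are descriptions over 6 libraries that share the split into 2 groups.

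Among 17 other mesothelial markers, all tested, 3 had positive and 14 negative log2 fold changes, and 0 passed in either direction. Over all genes tested 49.1% were positive and 50.9% negative. Their median log2 fold change was -1.30, against -0.01 over all genes, and -0.84 without PSC library 1. The simple-epithelium keratin KRT18 had -2.18 (SE 0.32), with 176.0 to 280.3 CPM in PSC and 32.2 to 63.5 CPM in PSCN. The Wnt agonist RSPO1 had -2.78 (SE 0.52), the growth factor-binding protein IGFBP6 -3.29 (SE 0.69) and the matrix protein EFEMP1 -1.56 (SE 0.49). The groups overlapped for EFEMP1. The 3 positive markers were BNC1 at 1.46 (SE 1.83), HAS1 at 1.43 (SE 0.75) and TMEM151A at 0.15 (SE 0.50), each with overlapping groups. In 4 of the 17 the PSCN libraries all lay below PSC, as in 13.4% of all genes tested, and in 5 of the 17 PSC library 3 was the highest, where 12.1% of all genes tested had their highest value. Their summed level was 1635 to 1836 CPM in PSC and 982 to 1224 CPM in PSCN, mostly from keratins that other epithelia also express.

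Summed club cell markers put all PSCN libraries below all PSC libraries, while ciliated cell markers were low in PSC library 3 as well. The 8 club cell genes found summed to 27560, 18353 and 3792 CPM in PSC against 572 to 1959 CPM in PSCN. Their log2 fold changes were negative in 8 of 8, with a median of -3.97 and 0 past the threshold. All PSCN libraries lay below PSC in 7 of the 8, against 13.4% of all genes tested. SCGB1A1 overlapped, at 22218, 10735 and 572 CPM in PSC against 360 to 995 CPM in PSCN. The 8 ciliated cell genes summed to 883.9, 407.3 and 40.2 CPM in PSC against 29.5 to 67.0 CPM in PSCN, also with 8 of 8 negative. In PSC library 3 the ciliated sum and SCGB1A1 lay inside the PSCN ranges, the club cell sum lay above, and MUC16 was at 15.7 CPM. The 10 squamous genes found ran the other way, from 183 to 9263 CPM in PSC and from 13431 to 37441 CPM in PSCN, with 10 of 10 positive and a median of 2.64. None of the genes found from these lists was at 0 in all libraries. Not found under the listed symbols were TRP63 (p63) and KRT6A of 12 squamous genes and CYP2F2 of 9 club cell genes. The human symbol TP63 was not looked up, so p63 may have been counted under it. CYP2F1 was among the club cell genes found. The part of cell mixture in the MUC16, MSLN and GPM6A differences was not tested. Of 9 neuron and neuroendocrine genes, which bear on CALB2 and GPM6A, 8 had negative log2 fold changes (median -2.20, 0 passed), with TUBB3 alone positive at 2.43 (SE 0.76). Alveolar type 1 markers, 7 genes, had a median of -0.52 with 3 positive and 4 negative. Medians were -1.44 for 7 alveolar type 2 genes (7 negative), -0.84 for 6 endothelial genes (5 negative), 0.91 for 7 fibroblast genes (2 negative) and -3.20 for 6 smooth and heart muscle genes (6 negative). Single libraries carried several of these medians. Without PSC library 1 they were -0.94 for muscle, -0.27 for endothelial and -1.47 for neuron and neuroendocrine genes. Without PSC library 2 they were 0.46 for alveolar type 1 and -0.63 for alveolar type 2 genes, without PSCN library 1 -1.05 for fibroblast genes, and without PSC library 3 4.42 for squamous genes. None of the members of these lists passed with edgeR.

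**Figure D3:**
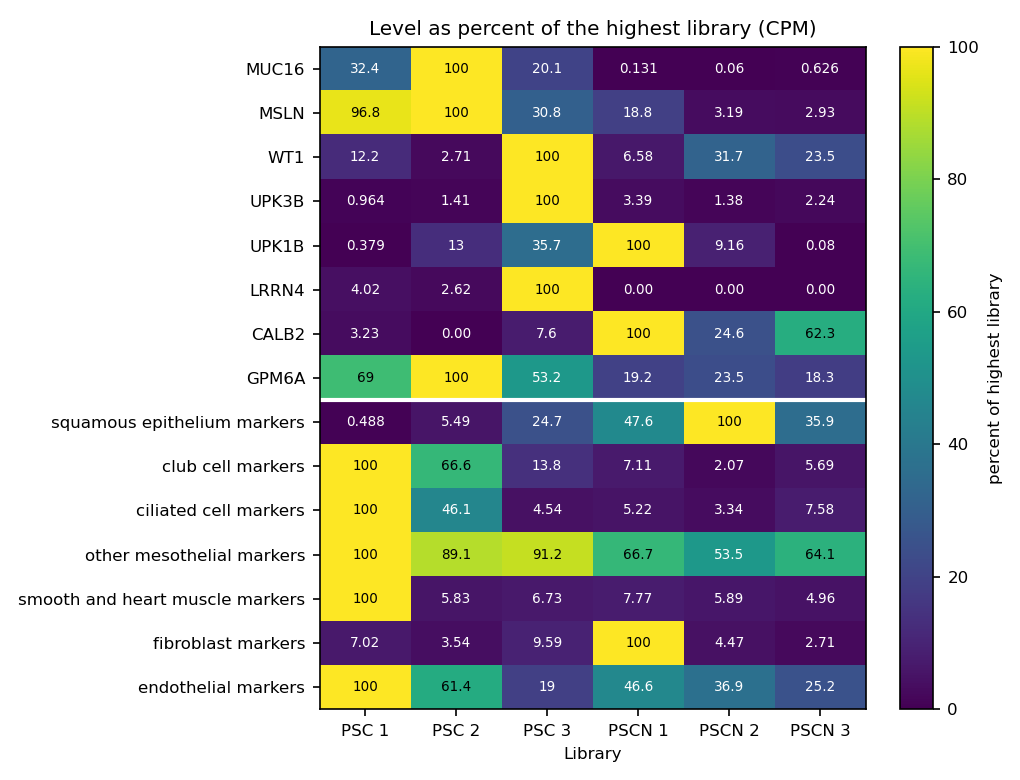
Level of each gene and summed level of each marker list in every library, as percent of that row's highest library on the CPM scale. MUC16 and MSLN peak in PSC library 2, UPK3B, LRRN4 and WT1 in PSC library 3, and squamous markers in PSCN library 2.

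Among relatives and partners, MUC16 stood apart from the other membrane mucins in size. Of 8 such mucins found, counting MUC16, 7 were tested, 6 had negative log2 fold changes, the median was -1.08 (0.35 without PSC library 3) and 0 passed. MUC1 stood at 168.4 to 421.9 CPM in PSC and 101.1 to 172.7 CPM in PSCN (log2 fold change -1.08, SE 0.39). MUC4 had -0.68 (SE 0.85), MUC20 -0.20 (SE 0.62) and MUC15 1.02 (SE 0.83), while the barely counted MUC3A had -3.54 (SE 1.24). MUC3 had 0 counts in every library. Differences between these mucins in their response were not tested. Galectin-3 (LGALS3), which binds MUC16 sugars, stood at 187.3 to 403.7 CPM in PSC and 434.1 to 884.2 CPM in PSCN (log2 fold change 1.25, SE 0.40). The cytoskeletal linkers EZR, RDX and MSN had -0.05, -0.45 and -0.10, FURIN, the protease that cleaves the mesothelin precursor, had 0.41 (SE 0.18), and none of the 5 partners passed.

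The other uroplakins were counted at low levels. UPK3A was at 4.48, 2.93 and 0.749 CPM in PSC against 0.108 to 0.452 CPM in PSCN (log2 fold change -3.22, SE 0.84). UPK1A had -0.73 (SE 0.59) and UPK2 -0.55 (SE 0.54), both with overlapping groups, and 0 of the 4 uroplakins tested passed. Of 7 close relatives of the other members that were tested, 6 had negative log2 fold changes and 0 passed. GPM6B, a relative of GPM6A, had -0.90 (SE 0.35), LRRN2 and LRRN3 had -1.28 (SE 0.41) and -2.92 (SE 0.98), and MSLNL, the mesothelin-like gene, had -2.41 (SE 1.15) at no more than 1.40 CPM. CALB1 had -7.99 (SE 2.23), with 92.2 CPM in PSC library 3, 1.40 and 3.31 CPM in PSC libraries 1 and 2 and at most 0.248 CPM in PSCN, so it was the opposite of CALB2 in direction.

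Genes whose log2 CPM followed these genes most closely over the 6 libraries were looked up among 13647 genes of at least 2 CPM on average. For MUC16 they were the ubiquitin ligase RNF130, the antisense transcript JUNOS, the adhesion protein NECTIN3 and the phospholipase PLCH1 (r = 0.997, 0.996, 0.995 and 0.995). PLCH1 stood at 32.7 to 42.5 CPM in PSC and 4.47 to 9.35 CPM in PSCN, whereas RNF130 ran only from 39.3 to 58.4 CPM. For MSLN they were AS3MT, ADCY9, CASD1 and HFE (r = 0.995 to 0.997). For GPM6A they included PPARG, DPP4 and ERBB4 (r = 0.993 to 0.994), and the receptor ERBB4 stood at 4.78, 12.8 and 3.02 CPM in PSC and at most 0.0464 CPM in PSCN. For CALB2 they were RCOR2, CENPT, PPP2R5D and FAM221B (r = 0.990 to 0.997), with the corepressor RCOR2 at 3.84 to 8.64 CPM in PSC and 15.8 to 31.3 CPM in PSCN. For WT1 they were STYX, TPM3-RS7, HLA-F and TRAF3 (r = 0.961 to 0.984), and for UPK1B WASHC1, MYADM, SCIN and RPL35A (r = 0.953 to 0.981). With 6 libraries such values are common: r was at least 0.9 for 486 genes (3.56%) with MUC16, 679 with MSLN, 414 with GPM6A and 334 with CALB2, but for 31 with WT1 and 34 with UPK1B.

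**Figure D4:**
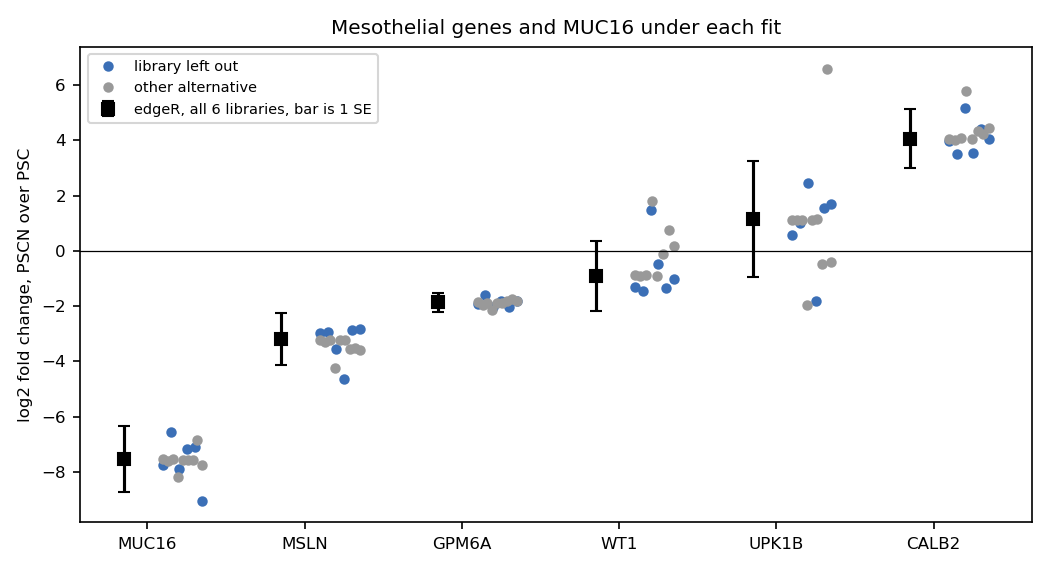
Log2 fold change of PSCN over PSC for the 6 genes tested, with the edgeR fit of all libraries as a black square with 1 SE, fits with 1 library left out in blue and other alternatives in grey. MUC16, MSLN and GPM6A stay below 0 and CALB2 above 0 in every fit drawn, while WT1 and UPK1B lie on both sides of 0.

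By position in GRCm38 (GENCODE M21), MUC16 (ENSMUSG00000109564.1) lies on chromosome 9 from 18495455 to 18674530, with 86 merged exons, and overlaps only the short noncoding Gm25295 on the other strand, which had at most 3 counts. MSLN (ENSMUSG00000063011.7) lies on chromosome 17 from 25748613 to 25754378, UPK3B on chromosome 5 from 136038496 to 136046487, UPK1B on chromosome 16 from 38773184 to 38800328, and LRRN4 and WT1 on chromosome 2, from 132868305 to 132880891 and from 105126529 to 105173616. CALB2 and GPM6A share chromosome 8, from 110137502 to 110168210 and from 54954843 to 55060871. GPM6A holds 5 transcript models of uncertain status on its own strand, which were not analysed here. All 8 are protein-coding genes.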

How the data were processed

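RNA was extracted with Trizol, made into stranded libraries of total RNA and read in pairs of 76 nt, per the labels' protocols. GRCm38 is the build in the submitters' processing notes, with StringTie, HISAT2, Trimmomatic and DESeq2 as tools, while versions, annotation and strand handling are not given in the sources used here. The authors deposited counts per gene symbol as whole numbers, and DESeq2's mean normalized signal, log2 fold changes with SE, a Wald score, p-values and adjusted p-values. Table columns were matched to labels by letter and number, which the labels do not spell out. Of 46937 symbols, 14737 had no count, and 45268 matched GENCODE M21 once.

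Genes were filtered with filterByExpr (21201 left, 6 of the 8 members), TMM-normalized and tested with edgeR 4.0.16 by quasi-likelihood (glmQLFTest, R 4.3.3; 4 residual and 2.03 prior degrees of freedom) with Benjamini-Hochberg adjustment over all genes tested and a threshold of 0.05. Each SE was taken as |log2 fold change|/√F. With 3 libraries a group, the smallest two-sided p of an exact permutation test is 0.1, so none was used. The members and the 15 other lists were chosen with earlier results of these data known. Named genes were the members, up to 4 genes per list with the smallest p, the 4 genes most correlated with each tested member (at least 2 CPM on average, log2 CPM with a prior count of 2, no predicted gene, pseudogene or plain identifier), XIST and NSD3. EZR, MUC3, MUC4, MUC20, TUBB3, GPM6B, MSLNL, SCGB1A1 and the genes high in PSC library 3 alone were chosen after their values were seen. So were BNC1, HAS1, TMEM151A and PODXL. Some genes that met these rules are not reported here. Alternatives were RLE and upper quartile factors, DESeq2 1.42.0, limma-voom (limma 3.58.1) with quality weights and, added after seeing the data, without them, 2 other filters, each library left out (for list medians added after seeing the data), a replicate block and sex as a covariate. The fits were tested on simulated data. Since no molecular identifiers were used, floors cover counting error only. Same-numbered libraries of the groups deviated together with r of 0.19, -0.05 and 0.02, against at best -0.03, 0.03 and 0.19 with another number. These values cannot decide whether the numbers pair samples, which the labels do not state.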

Additional observations from a re-analysis of the deposited data

How the results depend on the processing

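The count of genes called in PSCN, 1 higher and 0 lower with edgeR on all libraries, depended on the fit. There were 904 higher and 1843 lower calls from DESeq2, 1788 and 1238 from limma-voom with quality weights, and 0 and 0 from limma-voom without weights, which was added after seeing the data. A filter of 1 CPM in 3 libraries gave 3 higher, and the replicate block and sex as a covariate gave 0 higher each. With 1 library left out, 0 to 751 genes were called higher and 0 to 1195 lower, the highest counts both without PSC library 3. The number of tested members with a positive log2 fold change, 2, was 1 with the 1 CPM filter, where CALB2 is not tested, 1 with the replicate block, 3 with sex as a covariate, and 1 to 3 with 1 library left out.

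MUC16, MSLN and GPM6A kept a negative and CALB2 a positive log2 fold change in each alternative that tested them (15, 15, 15 and 14). MUC16 and GPM6A were past the threshold in 3 of these, and MSLN and CALB2 in 2. WT1, at -0.89, turned to 1.81 with quality weights, 1.47 without PSC replicate 3, 0.78 with sex as a covariate and 0.17 in limma-voom without weights. UPK1B, at 1.15, turned to -1.96 with quality weights, -1.82 without PSCN replicate 1, -0.47 with the replicate block and -0.41 in limma-voom without weights, and stood at 6.60 (SE 3.99) with sex as a covariate. With 1 library left out, WT1 ran from -1.44 to 1.47 and UPK1B from -1.82 to 2.46. The cause of these turns was not tested. With the replicate block MUC16 had -7.57 and an adjusted p of 0.264, though the labels do not say that same-numbered libraries pair. With sex as a covariate MUC16 had -6.85 and an adjusted p of 0.190. UPK3B and LRRN4 had too few counts for the filter.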
